A study of Mus musculus with 35 samples.

Results

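The hair shaft keratins are the structural proteins of the hair fibre. They were followed here as the genes of a list of symbols that had a row in the gene table, whatever their values. Of 10 listed symbols, 9 were present among 36106 genes: the type I keratins Krt31, Krt33a, Krt33b, Krt34, Krt35 and Krt36 and the type II keratins Krt81, Krt83 and Krt86. Krt85 was not analysed here. RNA had been measured by bulk sequencing in 35 skin biopsies of 19 female C57BL/6J mice, an inbred black-coated laboratory strain, which were 10 weeks old at the start. Radiated skin, on the left flank, had received 25 Gy within 420 seconds (3.6 Gy per min) and was shaved with an electric razor afterwards. It was sampled 1, 2, 3 and 4 weeks later with n = 4 per week, and each week also had 4 samples labelled control. Skin of 3 sham mice had no radiation. A radiated and a control sample that share week and number were treated as a pair from 1 mouse, and each week used different mice. Whether sham and control skin was shaved, when sham skin was taken and where on the body control skin was taken are not given in the sources used here.

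Hair keratins are intermediate filament proteins. An acidic type I chain pairs with a basic type II chain, and the filaments are then embedded in keratin-associated proteins and cross-linked through cysteines as the fibre hardens. The genes are transcribed in the hair follicle while matrix cells of the bulb divide, move upward and turn into cortex and cuticle. That happens in anagen, the growth phase of the hair cycle. In catagen the lower follicle regresses, and in telogen, the resting phase, no new fibre is made. Dividing matrix cells are sensitive to ionizing radiation.

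The 6 type I genes lie in 1 block on chromosome 11, between position 100011195, the start of Krt33a, and position 100105626, the end of Krt36 (mm10, GENCODE M21 gene bounds). All 6 are on the minus strand. Krt81 and Krt83 are on the minus strand and Krt86 on the plus strand of chromosome 15, between positions 101459061 and 101491512. The genes within each block are similar in sequence, which bears on how reads are divided among them. Of all 31-base words in the transcripts of a gene, 28.9% to 42.0% were shared with another gene for Krt31, Krt33a, Krt33b and Krt34, and 37.4% to 50.0% for Krt81, Krt83 and Krt86. Krt81 and Krt86 alone shared 821 words. Krt35 shared 5.77% and Krt36 1.77%. The shared words of Krt35 were spread over 2726 other genes, against 2 to 10 for the other members, so its low values are uncertain too. The split between Krt81, Krt83 and Krt86, and among the 4 similar type I genes, is therefore less certain than their sum.

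To set type I genes of 1 block side by side, the 250 bases before the start site are shown for Krt31, Krt33b, Krt34 and Krt36, the 4 members with a RefSeq window (GRCm38.p6). Capitals mark 4 short motifs searched on both strands: TATAAA (the TATA box), CTTTGAA (a core bound by LEF1 and TCF proteins), TTTAT (a core of homeobox type) and CCAAT, which reads ATTGG on the opposite strand.
Krt31 promoter, chr11:100050552-100050801, minus strand: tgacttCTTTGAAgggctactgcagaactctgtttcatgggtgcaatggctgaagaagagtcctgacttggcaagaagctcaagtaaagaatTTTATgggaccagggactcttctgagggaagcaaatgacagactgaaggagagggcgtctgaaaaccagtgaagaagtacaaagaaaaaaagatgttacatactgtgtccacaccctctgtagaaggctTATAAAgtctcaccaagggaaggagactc
Krt33b promoter, chr11:100029869-100030118, minus strand: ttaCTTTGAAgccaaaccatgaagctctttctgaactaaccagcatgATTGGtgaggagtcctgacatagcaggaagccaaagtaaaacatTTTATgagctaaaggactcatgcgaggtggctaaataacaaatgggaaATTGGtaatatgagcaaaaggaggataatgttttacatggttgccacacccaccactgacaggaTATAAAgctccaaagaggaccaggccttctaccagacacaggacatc
Krt34 promoter, chr11:100041555-100041804, minus strand: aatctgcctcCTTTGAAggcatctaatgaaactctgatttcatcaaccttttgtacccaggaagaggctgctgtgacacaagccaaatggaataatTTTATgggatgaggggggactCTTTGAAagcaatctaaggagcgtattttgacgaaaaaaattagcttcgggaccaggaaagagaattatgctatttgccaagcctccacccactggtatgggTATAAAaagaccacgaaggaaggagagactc
Krt36 promoter, chr11:100105627-100105876, minus strand: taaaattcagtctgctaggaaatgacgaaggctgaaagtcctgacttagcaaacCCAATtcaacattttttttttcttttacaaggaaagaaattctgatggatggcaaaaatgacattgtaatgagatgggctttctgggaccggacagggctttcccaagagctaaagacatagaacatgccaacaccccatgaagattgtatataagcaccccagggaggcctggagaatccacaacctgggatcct
Krt31, Krt33b and Krt34 each had TATAAA on the gene's strand, starting 29, 47 and 31 bases before the start site. The same 3 genes had CTTTGAA at 244, 247 and 240 bases before it, and Krt34 a further copy at 133. They also had TTTAT at 158, 159 and 154 bases before it. A further TTTAT on the opposite strand overlaps TATAAA in each. CCAAT was in 2 of the 4, on the opposite strand in Krt33b at 203 and 111 bases and on the gene's strand in Krt36 at 196 bases. Among 32851 RefSeq windows of 300 bases (250 before and 50 after the start), 13.6% held TATAAA, 5.14% CTTTGAA, 40% TTTAT and 37.4% CCAAT. Krt36 held neither TATAAA nor CTTTGAA in its window. These matches describe letters only.

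Library totals ran from 17362853 to 28487885 estimated counts. Levels are given as CPM, the usual unit of a gene's counts relative to the library total, with that total scaled by trimmed mean of M values (TMM). The floor of 3 counts corresponds to 0.114 to 0.175 CPM depending on the library, and it covers counting error only. Krt14, the basal epidermal keratin, was at 1046 to 10239 CPM in these libraries, which were labelled skin. Less RNA from a gene in a biopsy can mean fewer cells that make it or less RNA per cell, and these cannot be told apart in bulk samples. A library is named by group and replicate number, and replicate numbers have no order.

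The hair shaft keratins were high in sham skin and near the floor in most other libraries. Their summed level was 265.7, 2504 and 3469 CPM in sham replicates 1, 2 and 3 (mean 2079.8 ± 1644 SD, n = 3). Outside sham skin, 8 of 32 libraries were at 12.2 CPM or above. They were control week 1 replicates 1 and 4 at 1009.7 and 104 CPM, control week 2 replicates 1 and 4 at 115 and 12.2, radiated week 3 replicate 4 at 79.2, control week 3 replicate 4 at 135, and radiated week 4 replicates 1 and 3 at 14.7 and 379.8. The other 24 libraries lay between 0.731 and 5.85 CPM. All 9 members were above the floor in 10 of the 35 libraries. The level was thus not a matter of radiated against control skin alone: high and low libraries occurred within control weeks 1, 2 and 3 and radiated weeks 3 and 4, while radiated weeks 1 and 2 (1.56 to 5.85 and 1.36 to 4.21 CPM) and control week 4 (1.46 to 2.56 CPM) held no high library. In week 3 the high library carried number 4 in both radiated and control skin, which were treated as 1 mouse. In week 4 the high radiated libraries, numbers 1 and 3, had control partners at 1.48 and 2.56 CPM.

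**Figure D1:**
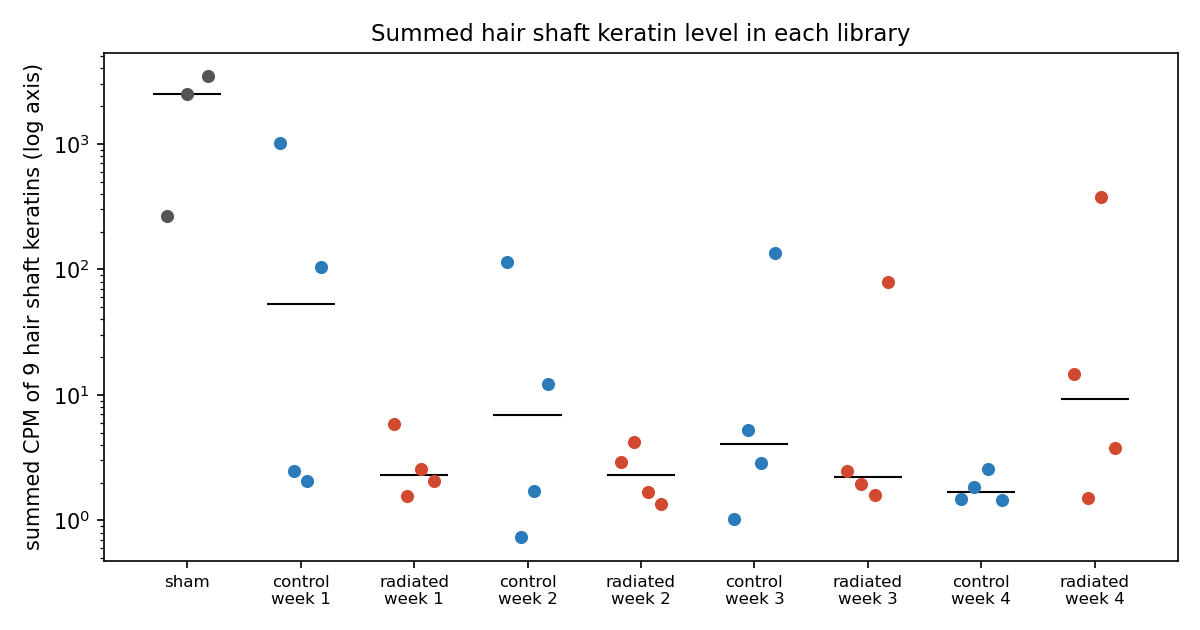
Summed CPM of the 9 hair shaft keratins (vertical log axis) in each of 35 libraries, by group (horizontal axis). Each point is a library. The 3 sham libraries sit between 265.7 and 3469 CPM, and 24 libraries sit at or below 5.85 CPM.

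The cortex keratins of type II gave the most counts. Krt86, which forms heterodimers with type I chains in the cortex, was at 63.1, 798.8 and 1051 CPM in sham skin. In radiated skin it was at 0.341, 0, 0.0435 and 0 CPM in week 1, at 0.133, 0.877, 0.135 and 0.218 in week 2, at 0.503, 1.12, 0.495 and 24.3 in week 3, and at 3.84, 0.543, 113 and 1.12 in week 4. In control skin it was at 287, 0, 0.0477 and 29.0 CPM in week 1, at 19.7, 0, 0 and 3.13 in week 2, at 0, 0.0819, 0.0465 and 40.2 in week 3, and at 0.317, 0.310, 0.555 and 0.0769 in week 4. In both kinds of skin, then, 1 or 2 of 4 libraries carried nearly all of a week's Krt86, except in radiated week 2 and control week 4. Krt81, another type II cortex keratin, was at 52.1, 556 and 718 CPM in sham skin. Outside sham skin it ran from 0 in 8 of the 32 libraries to 222 CPM in control week 1 replicate 1. Krt83 was at 50.6, 400.5 and 643 CPM in sham skin. In radiated skin it was at 0.128, 0.162, 0.304 and 0.218 CPM in week 1, at 0, 0.292, 0.587 and 0.381 in week 2, at 1.23, 0.280, 0.609 and 11.8 in week 3, and at 2.43, 0.310, 64.9 and 1.07 in week 4. In control skin it was at 187, 0.142, 0 and 15.4 CPM in week 1, at 7.31, 0.0860, 0 and 1.77 in week 2, at 0, 0.328, 0.232 and 18.0 in week 3, and at 0.159, 0.177, 0.128 and 0.0769 in week 4. Every radiated week 4 value of Krt83 lay above every control week 4 value.

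Among the type I cortex keratins, Krt31 was at 22.8, 139.6 and 226 CPM in sham skin, Krt33a at 19.8, 189.6 and 240.0, Krt33b at 14.2, 99.6 and 124, and Krt34 at 14.0, 234 and 292. The highest value outside sham skin was in control week 1 replicate 1 for each of the 4 genes: 65.4 CPM for Krt31, 83.7 for Krt33a, 43.5 for Krt33b and 84.1 for Krt34. The highest libraries of radiated weeks 3 and 4 were the same for these 4 genes as for the type II members. In radiated week 3 replicate 4 they stood at 3.82, 2.99, 2.67 and 5.02 CPM, while the other 3 libraries of that group ran from 0 to 0.0457 CPM. In radiated week 4 replicate 3 they stood at 24.8, 29.2, 11.8 and 36.3 CPM.

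Krt35, a keratin made early, in the matrix and the lower cortex and cuticle, differed in its low libraries. It was at 25.6, 63.0 and 155 CPM in sham skin. In radiated skin it was at 2.18, 0.593, 0.522 and 0.568 CPM in week 1, at 1.55, 1.17, 0.587 and 0.0545 in week 2, at 0.594, 0.560, 0.457 and 6.26 in week 3, and at 2.05, 0.349, 22.8 and 0.669 in week 4. In control skin it was at 33.1, 0.380, 1.00 and 9.17 CPM in week 1, at 47.0, 0.0860, 0.83 and 1.41 in week 2, at 0.720, 0.123, 0.836 and 6.73 in week 3, and at 0.582, 0.442, 0.256 and 0.576 in week 4. It was never at 0 in any library, and its estimate was not a whole number in all 35 libraries, against 2 of 35 for Krt36, which is how kallisto divides reads that fit several transcripts. How much of the low Krt35 values is reads divided with other genes was not tested.

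Krt36, made in the upper cortex and also known from tongue papillae, had the lowest level in sham skin, 3.40, 22.6 and 20.5 CPM. In radiated skin it was at 1.79, 0.539, 1.00 and 1.27 CPM in week 1, at 1.19, 0.643, 0 and 0.218 in week 2, at 0.0457, 0, 0 and 0.276 in week 3, and at 0.299, 0, 2.05 and 0.0446 in week 4. In control skin it was at 4.28, 1.61, 0.429 and 2.19 CPM in week 1, at 1.38, 0.344, 0.218 and 0.573 in week 2, at 0.0450, 4.50, 1.63 and 1.88 in week 3, and at 0.0529, 0.619, 0.811 and 0.154 in week 4. Its highest control week 3 value was in replicate 2, a library where the other 8 members ran from 0 to 0.328 CPM. Its radiated week 1 values of 0.539 to 1.79 CPM came from libraries in which Krt34 was at 0 to 0.0539 CPM.

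**Figure D2:**
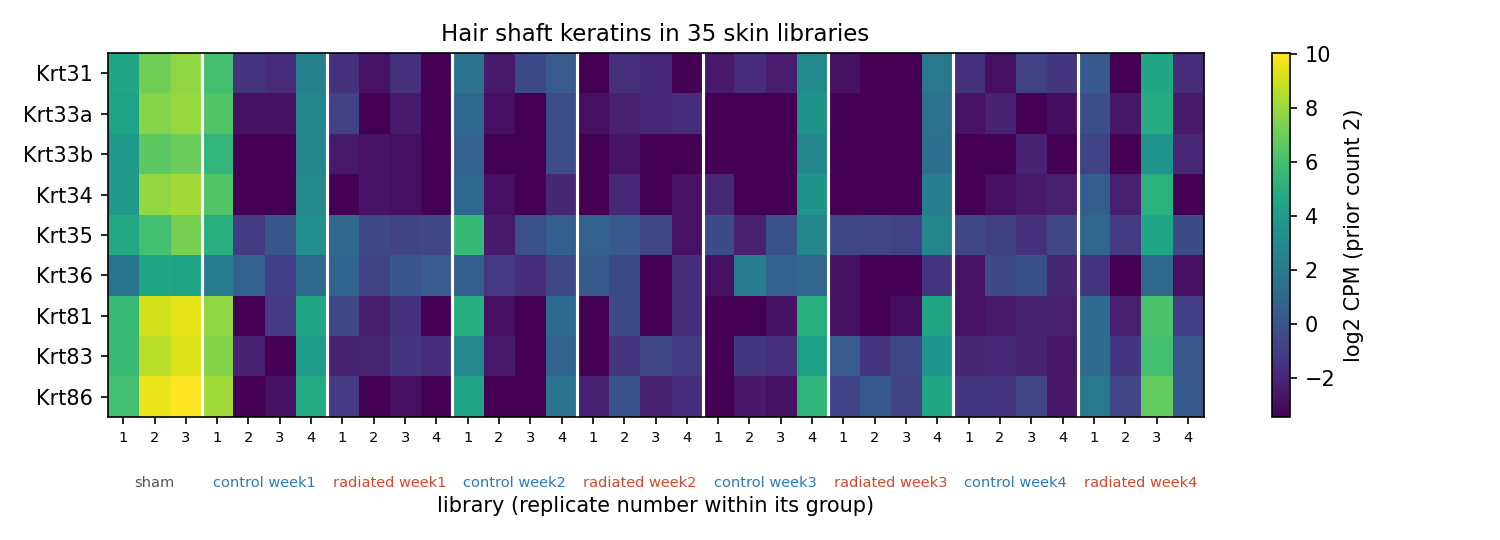
Level of each hair shaft keratin (rows, log2 CPM with a prior count of 2, colour scale) in each of the 35 libraries (columns, replicate number within its group). Mostly the same columns are high in 8 rows, and the row of Krt36 departs from them.

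The make-up of the set was compared between members per kilobase of the longest transcript, in the 11 libraries with a summed level of at least 10 CPM. Type II chains made up 54.2% to 72.5% of the CPM per kb and type I chains the rest, 27.5% to 45.8%. The median share was 26.1% for Krt86, 21.5% for Krt81 and 16.4% for Krt83. Among type I members it was 9.33% for Krt34, 7.45% for Krt33a, 7.39% for Krt31, 6.10% for Krt35, 4.54% for Krt33b and 1.39% for Krt36. Control week 2 replicate 1 stood apart. There Krt35 made up 34.7%, against 1.90% to 10.7% in the other 10 libraries. In the same library the shares of Krt31 (3.50%), Krt33a (2.09%), Krt33b (1.86%), Krt83 (7.35%) and Krt86 (17.8%) were below those of the other 10 libraries, and the share of Krt81 was the highest at 29.1%. That library also had Lef1, a transcription factor of matrix and precortex, at 130 CPM against 6.58, 7.60 and 11.2 in the rest of its group. It had Hoxc13, which binds hair keratin promoters, at 39.0 CPM against 5.12, 4.15 and 5.47. Mki67, a marker of dividing cells, was at 402 CPM there, against 64.7, 57.2 and 35.1 in its group and 175 to 344 in sham skin. It is 1 library, so there is no replicate check.

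**Figure D3:**
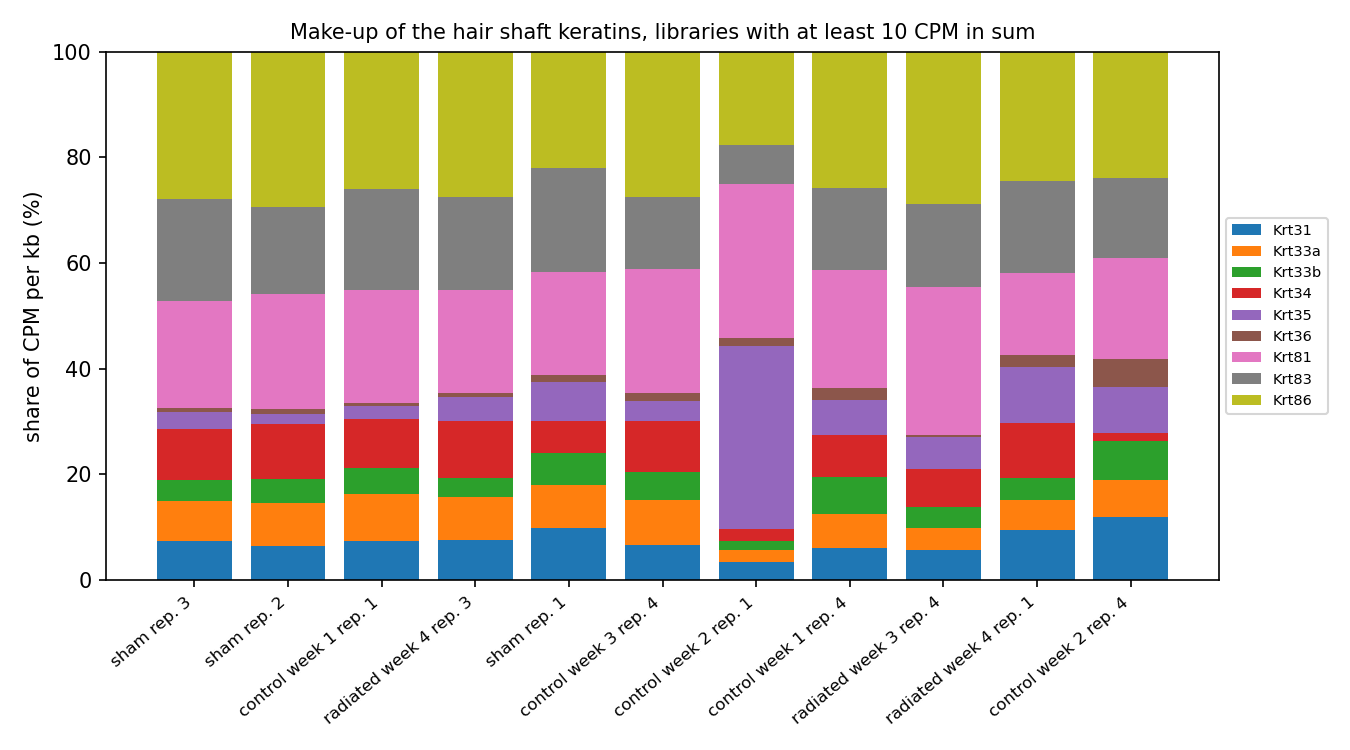
Share of each hair shaft keratin in the CPM per kb of the set (vertical axis, percent, stacked bars from 0) in the 11 libraries with at least 10 CPM in sum (horizontal axis). Krt86, Krt81 and Krt83 fill most of each bar, and Krt35 fills 34.7% of the bar of control week 2 replicate 1.

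Against sham skin, the hair shaft keratins were lower in radiated skin from week 1 and most of them remained lower to week 3. Genes with an adjusted p under 0.05 (edgeR quasi-likelihood test, Benjamini-Hochberg over all genes tested) are called. In radiated week 1, 9 of 9 members fell, where 1.21% of all tested genes were called lower. In week 2, 9 of 9 fell, where 2.9% were called lower. In week 3, 8 of 9 fell, where 7.75% were called lower. In week 4, 2 of 9 were called lower, where 11.5% of all tested genes were, and all 9 had an unadjusted p under 0.05. The median log2 fold change of the 9 members was -10.61, -10.26, -6.85 and -4.35 in weeks 1 to 4, while that of all tested genes lay between -0.05 and 0.03 in all 8 comparisons with sham skin. Single libraries moved these medians: that of radiated week 3 was -12.61 without replicate 4, and that of radiated week 4 was -8.37 without replicate 3. All 8 comparisons share the same 3 sham libraries, so they are not independent of each other. A gene was tested only where enough of the libraries compared carried enough counts of it (the expression filter). In radiated week 1 Krt31, Krt33b, Krt34, Krt83 and Krt86 had at most 6, 2, 1, 7 and 8 counts in any library. Such members passed through sham skin and had to be lower to be tested. Their calls cannot be read against the share of all tested genes, also in other weeks where members were near the floor.

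In week 1 after radiation the fitted falls differed in size between members, and the differences between members were not tested. Krt86 fell by 12.55 on the log2 scale (SE 1.22, adjusted p = 0.00498), and Krt83 fell by 10.78 (SE 0.92, adjusted p = 0.00339). Krt34 had 2 counts over the 4 radiated week 1 libraries and 11372 over the sham libraries, a depth-corrected ratio of 7735 with an exact 95% counting interval of 2141 to 63882. That interval covers counting error of the pooled counts and not the spread between mice. The ratio uses raw library totals, and the ratio of mean CPM was 7388. Krt35 fell less, by 6.39 (SE 0.73, adjusted p = 0.00538), and Krt36 least, by 3.75 (SE 0.62, adjusted p = 0.0191). The call of Krt36 was lost without sham replicate 2 or 3 or radiated week 1 replicate 3 or 4 (adjusted p up to 0.104). No radiated week 1 value of any member reached the lowest sham value, as was so for 7.89% of all tested genes. Leaving out radiated week 1 replicate 3 left 0 members called, but then only 1 of all genes was called, and the largest unadjusted p of the 9 members was 0.00126.

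In week 2 after radiation Krt33b had 1 count over the 4 libraries and 5016 over the sham libraries, a ratio of 6750.0 with a counting interval of 1211 to 266663. Here too the interval leaves out the spread between mice, and the ratio of mean CPM was 5419. Krt31 fell by 10.26 (SE 1.01, adjusted p = 0.00473) and Krt36 by 4.89 (SE 0.94, adjusted p = 0.0254). The call of Krt36 was lost without sham replicate 2 or 3 or radiated week 2 replicate 2, 3 or 4 (adjusted p up to 0.114). The groups did not overlap for any member, as for 11.5% of all tested genes. In week 3 Krt36 fell by 7.49 (SE 1.02, adjusted p = 0.00543) and Krt33a by 7.60 (SE 1.57, adjusted p = 0.0155). Krt81 was at -6.26 (SE 1.99) and missed the threshold with an adjusted p of 0.0609. The 9 members did not overlap with sham skin in week 3 either, as for 18.1% of all tested genes. Radiated week 3 replicate 4 held most of the keratin RNA of its group, and without it 9 members were called, whereas 3 were called without sham replicate 2 and 4 without sham replicate 3. These fits called 22%, 6.07% and 9.63% of all genes in either direction.

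In week 4 after radiation only Krt33b at -4.61 (SE 1.46, adjusted p = 0.047) and Krt36 at -4.63 (SE 1.13, adjusted p = 0.0174) were called lower than sham skin. The other 7 members were at -3.59 to -4.44 with adjusted p of 0.0664 to 0.106. Krt33b, Krt35 and Krt36 did not overlap with sham skin, where 19.3% of all tested genes did not. Radiated week 4 replicate 3, at 379.8 CPM in sum, lay above sham replicate 1. Without that library 9 of 9 members were called lower. Without sham replicate 2 or radiated week 4 replicate 1, 0 were called, and without sham replicate 3 or radiated week 4 replicate 2 or 4, 1 was called. Of all genes, 19.1% to 24.5% were called in either direction in these 6 fits. The week 4 result thus depended on single libraries on both sides.

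Control skin was also below sham skin for most members in weeks 2 to 4. In control week 1 no member was called, at log2 fold changes of -2.67 to -3.02 and adjusted p of 0.0605 to 0.335, where 1.65% of all tested genes were called lower. Of the 9 members, 2 had an unadjusted p under 0.05, and DESeq2 called 1, where it called 16.6% of all genes. Without control week 1 replicate 1, at 1009.7 CPM in sum, 4 were called, and without sham replicate 1, 1 was called, where 8.81% and 9.84% of all genes were. In control week 2, 6 of 9 fell, where 1.06% of all tested genes were called lower. Krt34 was lowest there at -8.41 (SE 1.34, adjusted p = 0.0311). Krt35 at -2.73 (adjusted p = 0.328), Krt81 at -5.76 (adjusted p = 0.105) and Krt86 at -6.81 (adjusted p = 0.0712) were not called. All 9 were called without control week 2 replicate 1, the library with much Krt35, where 12.5% of all genes were called in either direction. Without any one of sham replicate 2, sham replicate 3 and control week 2 replicates 2, 3 and 4, 0 were called, but then at most 5 of all genes were.

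In control week 3, 6 of 9 fell, where 6.19% of all tested genes were called lower. Krt35 fell by 5.35 (SE 1.07, adjusted p = 0.0198). Krt36 at -2.94 (adjusted p = 0.0711), Krt81 at -5.83 (adjusted p = 0.0771) and Krt86 at -6.02 (adjusted p = 0.0778) missed the threshold. Without control week 3 replicate 4, 8 were called, where 7.58% of all genes were in either direction. Without sham replicate 3 or control week 3 replicate 1 or 3, 0 were called, and without sham replicate 2 or control week 3 replicate 2, 1 was called. Those 5 fits called 3.46% to 5.35% of all genes, against 11.4% with all libraries. In control week 4, 9 of 9 fell, where 1.9% of all tested genes were called lower. Krt33a, Krt33b, Krt34 and Krt81 had at most 3 counts in any of its libraries. They passed the expression filter through sham skin, so they had to be lower to be tested. Krt81 fell by 12.06 (SE 1.10, adjusted p = 0.00734), Krt35 by 7.46 (SE 0.68, adjusted p = 0.00734) and Krt36 by 5.22 (SE 0.82, adjusted p = 0.0181). Without control week 4 replicate 2, 3 or 4, 0 members were called, but then at most 2 of all genes were, and the members' unadjusted p did not pass 0.000827. The median log2 fold change of the 9 members was -2.86, -6.81, -5.90 and -11.02 in control weeks 1 to 4. It was -6.02 in week 1 without replicate 1, -9.19 in week 2 without replicate 1 and -11.46 in week 3 without replicate 4. Groups did not overlap with sham skin for 0, 8, 8 and 9 members in these weeks, against 10.9%, 8.7%, 13.5% and 9.64% of all tested genes.

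**Figure D4:**
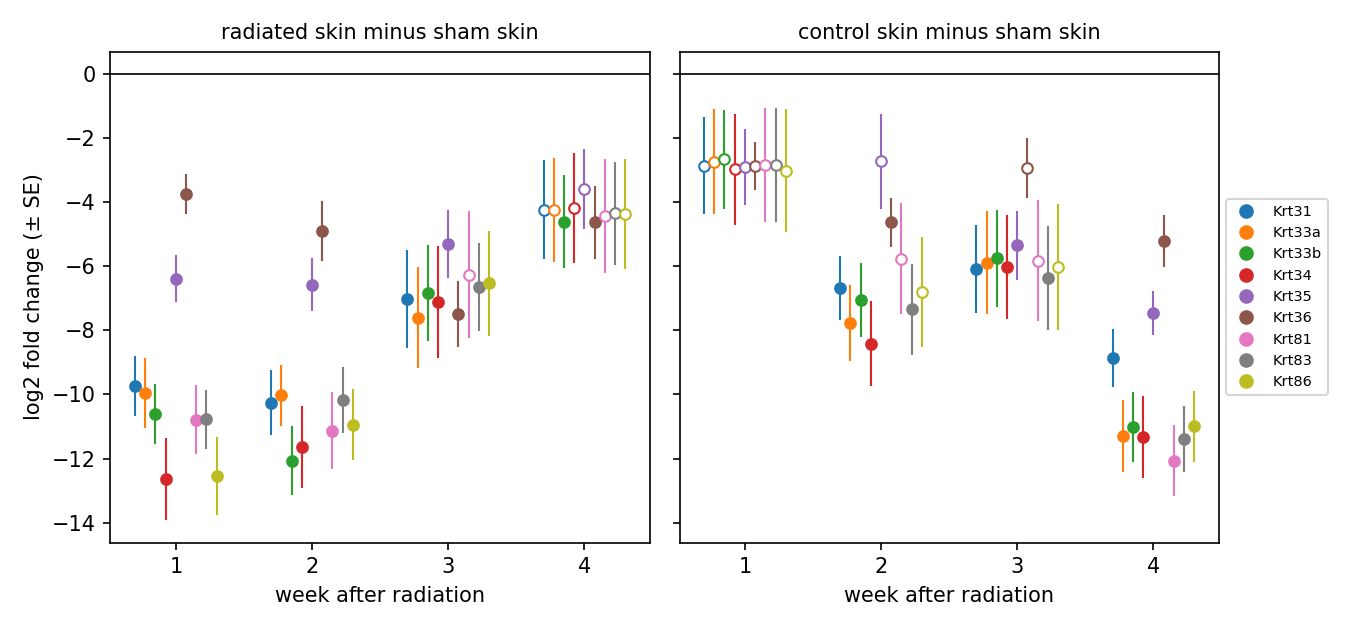
Log2 fold change against sham skin (vertical axis, bars are ± 1 SE) of each hair shaft keratin by week after radiation (horizontal axis), radiated skin on the left and control skin on the right. Filled points have an adjusted p under 0.05. The median of radiated skin is -10.61 in week 1 and -4.35 in week 4 (-8.37 without replicate 3), and that of control skin is -2.86 in week 1 (-6.02 without replicate 1) and -11.02 in week 4.

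Other cell types differed between some of these groups as well. The summed level of 8 skeletal muscle genes ran from 7321 to 19511 CPM in sham skin, from 25519 to 41888 in control week 1, from 28453 to 51276 in control week 2, from 18834 to 36106 in control week 3 and from 1520 to 23021 in control week 4. Against sham skin 5, 5, 3 and 0 of 8 muscle genes were called higher in control weeks 1 to 4, where 3.28%, 1.37%, 5.18% and 1.76% of all tested genes were called higher. In radiated week 4, 7 of 8 were called lower, where 11.5% of all tested genes were. The summed level of 6 leukocyte genes ran from 111 to 179 CPM in sham skin, from 515 to 1581 in radiated week 3 and from 793 to 1342 in radiated week 4, and 6 of 6 were called higher than sham skin in both weeks, where 10.4% and 15.2% of all tested genes were called higher. In radiated weeks 1 and 2 the muscle sums ran from 9665 to 23018 and from 13078 to 25610 CPM. There 0 of 6 and 0 of 5 leukocyte genes tested were called higher than sham skin, where 0.543% and 2.16% of all tested genes were. No defining marker of either list was at 0 throughout a group. The part of muscle and leukocyte RNA in the keratin differences was not tested.

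Within a week, radiated and control skin differed for few members, and few could be tested, because too few libraries of the groups compared carried enough counts of most members to pass the expression filter. In week 1 only Krt35 and Krt36 passed. Krt35 was at -3.47 (SE 1.14, adjusted p = 0.253) and Krt36 at -0.87 (SE 0.59, adjusted p = 0.505), where 0% of all tested genes were called. Without control week 1 replicate 1 they were at -1.85 and -0.28. In week 2 Krt35 was at -3.86 (SE 1.56, adjusted p = 0.309) and Krt36 at -0.28 (SE 0.91, adjusted p = 0.922), where 0.00577% of all tested genes were called higher and 0% lower. In each of these 2 weeks Krt35 alone had an unadjusted p under 0.05. Its week 2 difference came from control week 2 replicate 1, without which it was 0.12 (Krt36 then 0.45, and 0.13 without radiated week 2 replicate 3).

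In week 3 the radiated and control values overlapped for all 9 members, where 14.4% of all tested genes lay wholly higher and 17.3% wholly lower in radiated skin. Of the members, 0 of the 3 members tested were called, where 13.6% of all tested genes were called higher and 13.6% lower. Krt35 was at -0.06 (SE 1.16, adjusted p = 0.977), Krt83 at -0.38 (SE 1.60, adjusted p = 0.88) and Krt86 at -0.59 (SE 1.89, adjusted p = 0.841), and none had an unadjusted p under 0.05. Number 4 was high in both kinds of skin. Leaving out its control library alone gave 1.83 for Krt35, 4.17 for Krt83 and 7.07 for Krt86 (adjusted p = 0.047 for Krt86), and leaving out its radiated library alone gave -1.91, -2.65 and -3.80. With the mouse number as a block the 3 genes were at 0.082, 0.86 and 1.52, and none was called. In the 3 other pairs, Krt86 had 11, 24 and 13 counts in radiated and 0, 2 and 1 counts in control skin. Krt83 had 27, 6 and 16 counts in radiated and 0, 8 and 5 in control skin. Both genes passed the expression filter mainly through radiated skin, so these counts are no separate support for a difference. Krt36 did not pass the expression filter. Without that filter, where 8.65% of all genes were called lower, it fell by 4.58 (SE 1.22, adjusted p = 0.0246). In the fit of all 35 libraries it fell by 4.60 (adjusted p = 0.00708).

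In week 4 Krt86 rose by 6.56 (SE 1.85, adjusted p = 0.0152) and Krt35 by 3.79 (SE 1.25, adjusted p = 0.0306) in radiated over control skin, where 24.2% of all tested genes were called higher. Krt86 passed the expression filter mainly through radiated skin, with 90, 14, 2689 and 25 counts against 6, 7, 13 and 2 in control skin, so it had to differ to be tested. With the mouse number as a block, where 21.4% were called higher, Krt86 rose by 5.23 (adjusted p = 0.0116) and Krt35 was at 2.13 with an adjusted p of 0.18, so the call of Krt35 was lost. Krt83 did not pass the filter. It was the 1 member of 9 whose 4 radiated values all lay above its 4 control values, as for 22.9% of all tested genes. Without the filter, 8 of 9 members were called higher, where 16.6% of all genes were, Krt83 among them at 6.95 (SE 1.75, adjusted p = 0.0096). Krt36 was at 0.53 (adjusted p = 0.752). In the fit of all 35 libraries 7 of 9 were called higher, where 16.8% of all genes tested were. Radiated week 4 replicate 3 carried most of the difference. Without it Krt86 alone was called, at 2.56 (adjusted p = 0.0226), and Krt35 was at 1.15. The call of Krt35 was also lost without any 1 of the control week 4 libraries (adjusted p up to 0.155 with 1 library left out). In the same comparisons 5 of 6 leukocyte genes were called higher in week 3 and 6 of 6 in week 4, where 13.6% and 24.2% of all tested genes were. Of 8 muscle genes, 7 were called lower in week 3 and 6 in week 4, where 13.6% and 24.2% of all tested genes were. With the block 2 of 8 were called in week 4, where 21.3% of all tested genes were called lower. The part of these cell types in the differences was not tested.

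The radiated-minus-control difference changed over the 4 weeks for 8 of 9 members, in an F test over weeks in the 32 radiated and control libraries, where 15.6% of all tested genes were called. The adjusted p ran from 0.0115 for Krt83 to 0.0411 for Krt35, and Krt36 was not called (adjusted p = 0.143). With the mouse number as a block, where 15.8% of all tested genes were called, 5 members were called, Krt86 (adjusted p = 0.00609), Krt33b (0.00751), Krt34 (0.0162), Krt33a (0.0221) and Krt81 (0.0243), whereas Krt83 (0.0552), Krt31 (0.0592) and Krt35 (0.23) were not. Without the mice numbered 1 or those numbered 3, 0 members were called, and 2 or 5 without those numbered 2 or 4, where these fits called 7.63%, 4.97%, 8.46% and 9.2% of all genes. DESeq2 called 5, and 20.4% of all genes. Within radiated skin, Krt33a, Krt83 and Krt86 changed over weeks (adjusted p = 0.0398, 0.0128 and 0.0117) among 6 tested, where 23.3% of all tested genes were called. Within control skin, Krt31, Krt33a, Krt33b, Krt34 and Krt83 changed (adjusted p of 0.0357 to 0.049), where 23.9% of all tested genes were called. In control skin 0 or 1 members were called when the mice of any 1 number were left out, where 6.74% to 24.8% of all genes were. In radiated skin 1 was called without those numbered 1 and 0 without those numbered 3, where 13.8% and 10.9% of all genes were. Weeks are different mice, so these are differences between sets of mice.

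Other keratins of the hair shaft were also lower than in sham skin in most groups. The list held Krt32 and Krt82, keratins known from the hair cuticle, Krt39 and Krt40 of the upper shaft, Krt84, known from tongue papillae, and Krt87, a type II gene near Krt81. Of these 6 genes, 6, 6, 6 and 3 were called lower than sham skin in radiated weeks 1 to 4, and 0, 3, 6 and 6 in control weeks 1 to 4. The shares of all tested genes called lower were 1.21%, 2.9%, 7.75% and 11.5% in radiated and 1.65%, 1.06%, 6.19% and 1.9% in control weeks, which are also the background of the lists that follow. Krt87 was at 44.9, 382 and 483 CPM in sham skin, and it fell by 9.27 (adjusted p = 0.00498) in radiated week 1 and fell by 9.31 (adjusted p = 0.00822) in control week 4. Of the 31-base words of Krt87, 19% are shared with Krt86, 18.2% with Krt81 and 17.1% with Krt83, so its split from these members is uncertain too. Krt82 fell by 8.32 (adjusted p = 0.00639) and Krt39 fell by 7.63 (adjusted p = 0.0169) in radiated week 1. Krt40 fell by 5.76 (adjusted p = 0.0145), Krt84 fell by 5.41 (adjusted p = 0.0298) and Krt32 fell by 4.08 (adjusted p = 0.0106) there. In radiated over control skin of week 4, Krt87 rose by 5.08 (adjusted p = 0.0267) among 3 tested, and with the mouse number as a block its adjusted p was 0.0608. The difference changed over weeks for Krt82 and Krt87 (adjusted p = 0.0241 and 0.0346), 2 of 6, and with the block for Krt82 (0.0384) and not for Krt87 (0.0867), where 15.6% and 15.8% of all tested genes were called.

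Most regulators of shaft differentiation were also lower than sham skin in radiated weeks 1 to 4 and in control weeks 3 and 4. Of 9 genes, 5, 7, 7 and 6 were called lower than sham skin in radiated weeks 1 to 4, and 0, 0, 5 and 5 in control weeks 1 to 4. Hoxc13, a homeobox factor that activates hair keratin genes, fell by 3.18, 3.67, 4.06 and 3.18 in radiated weeks 1 to 4 (adjusted p = 0.0123, 0.0118, 0.00584 and 0.0209). Lef1, an effector of Wnt signalling, fell by 2.49, 3.08, 2.71 and 2.39 (adjusted p = 0.0444, 0.0139, 0.0102 and 0.0171). Foxn1, the factor missing in nude mice, fell by 2.66 in week 1 (adjusted p = 0.0277), and so did the homeobox genes Msx2 by 2.85 (adjusted p = 0.023) and Dlx3 by 2.66 (adjusted p = 0.0266). Msx1 at -1.29, Cux1 at -1.39, Bmpr1a, a receptor for bone morphogenetic proteins, at -0.58, and Ctnnb1, which encodes beta-catenin, at -0.74 were not called in that week. Their summed level was 527 to 636 CPM in radiated week 1 and 824 to 1842 CPM in sham skin. Most of that sum came from Ctnnb1, Cux1 and Bmpr1a, which are not restricted to the follicle and had means of 239, 186 and 178 CPM over the 35 libraries, against 12.9 for Hoxc13, 11.5 for Foxn1 and 8.29 for Msx2. Between radiated and control skin of week 4, 0 of the 9 regulators were called higher and Bmpr1a fell by 0.44 (adjusted p = 0.00587), and Hoxc13 was at -0.72 (adjusted p = 0.363) where Krt86 rose. In the change over weeks 1 of 9, Cux1, was called (adjusted p = 0.0418), and 0 with the block, where 15.6% and 15.8% of all tested genes were called.

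The neighbouring inner root sheath, the layer that moulds the growing shaft, was high in the libraries that had most hair shaft keratin. The 9 libraries with at least 79.2 CPM of hair shaft keratins had summed levels of 1472 to 35696 CPM for its 10 genes, and the other 26 had 65.0 to 1302 CPM. Among those 26 the sums did not follow the keratins: the 4 control week 4 libraries were at 1097 to 1302 CPM and radiated week 4 replicate 1, with more keratin, at 366 CPM. The sums include Gata3, which is also made in epidermis and had a mean of 597 CPM over the 35 libraries. In control week 4, 9 of the 10 genes were called lower than sham skin, at a list median of -10.13 on the log2 scale. Its sums therefore do not stand for most genes of the sheath. Of its 10 genes, 9, 9, 6 and 1 were called lower than sham skin in radiated weeks 1 to 4, and 0, 1, 5 and 9 in control weeks 1 to 4. Krt71, an inner root sheath keratin, was at 499.6, 4967 and 5147 CPM in sham skin, at 67.8, 1.47, 1334 and 13.0 in radiated week 4 and at 0.598 to 1.64 in control week 4. It rose by 8.58 (SE 2.06, adjusted p = 0.00675) between the last 2. Krt25 rose by 8.24 (adjusted p = 0.00757), and Tchh, which encodes trichohyalin, by 5.12 (adjusted p = 0.0209, but 0.223 with the block). Gata3, a transcription factor of that sheath also made in epidermis, fell by 2.95 (adjusted p = 7.38e-05). In week 4, 6 of 7 genes tested were called higher and 1 lower, where 24.2% of all tested genes were called in each direction, and with the block 4 were called. The difference changed over weeks for 9 of 10 (5 with the block), where 15.6% and 15.8% of all tested genes were called.

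Proteins that assemble and harden the shaft (desmosomal, calcium-binding and cross-linking proteins) were split. Of 9 genes, 5, 6, 5 and 0 were called lower than sham skin in radiated weeks 1 to 4, and 0, 2, 8 and 7 in control weeks 1 to 4. S100a3, a calcium-binding protein of the hair cuticle, was at 27.4, 259.6 and 319 CPM in sham skin and fell by 6.84 in radiated week 1 (adjusted p = 0.00639). Tgm1, a transglutaminase also made in epidermis, was at 0.66 in that comparison (adjusted p = 0.439). In radiated over control skin of week 4, 8 of 8 tested were called higher, 6 with the block, where 24.2% of all tested genes were, 21.4% with the block. They included Tgm1 at 0.73, Tgm3, another transglutaminase, at 2.52, and Dsc2, a desmosomal cadherin, at 2.65 (adjusted p = 0.000818, 0.000765 and 5.16e-06). Dsc2, Tgm1 and Tgm3 are not restricted to the follicle.

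**Figure D5:**
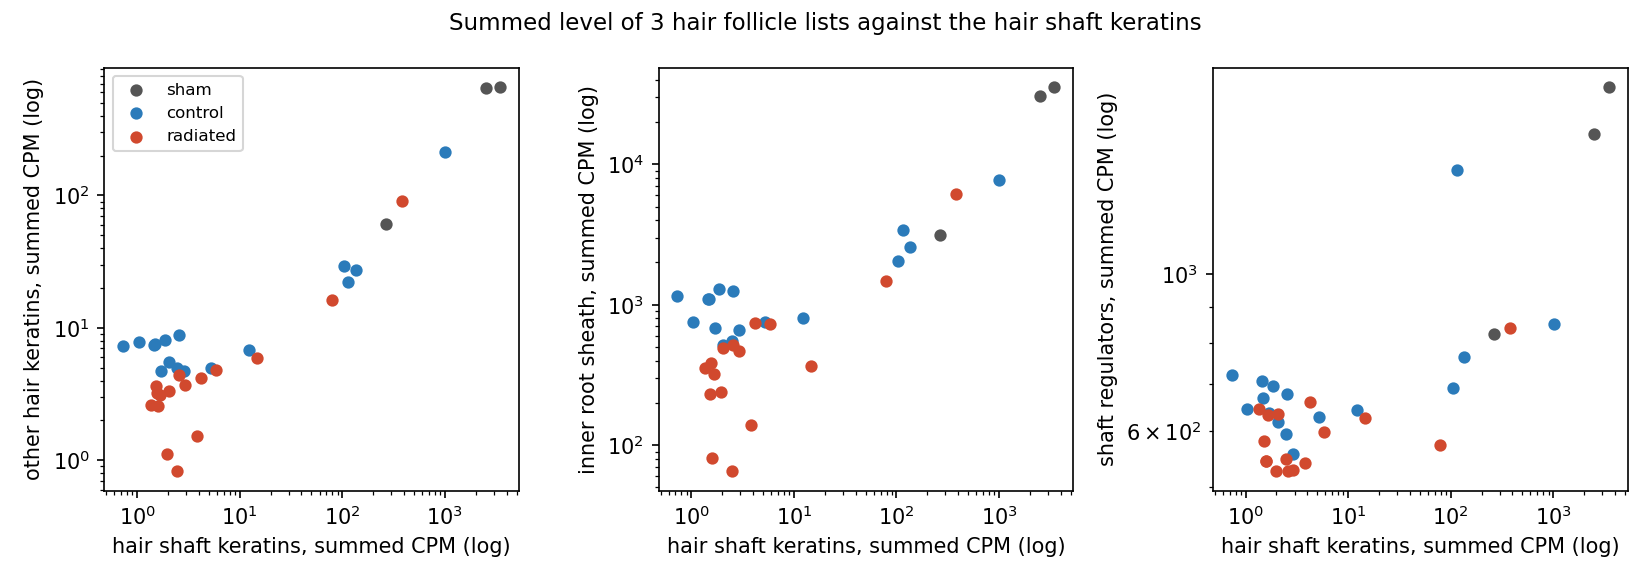
Summed CPM of the other hair keratins, the inner root sheath genes and the shaft regulators (vertical log axes) against summed CPM of the hair shaft keratins (horizontal log axes) in 35 libraries. Each point is a library, coloured by sham, control or radiated skin. In the first 2 panels the 9 libraries with at least 79.2 CPM of hair shaft keratins also have the highest sums of the other list, and in the third control week 2 replicate 1 sits at 1407 CPM of regulators with 115 CPM of keratins.

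Likeness to the hair shaft keratins was measured as the SD, over the 35 libraries, of the log2 ratio of a gene to the members' mean log2 CPM, so that a low value means a parallel pattern. Over the 12525 genes whose mean CPM reached 5, the median was 3.22. The 10 most alike genes were Tchh (0.57), Crnn (0.59), Krtap8-1 (0.65), Krt87 (0.77), Gm11938 (0.79), Krtap7-1 (0.80), Gm11562 (0.84), Krtap4-1 (0.85), Krtap4-8 (0.85) and Krtap4-2 (0.86). They include 5 genes named as keratin-associated proteins, the matrix of the fibre, and 1 hair keratin, Krt87, which shares words with 3 members. Measured against the mean of the other 8 members, Krt33b was closest (0.38), then Krt33a (0.64), Krt31 (0.82), Krt34 (0.86), Krt83 (1.03), Krt81 (1.20), Krt35 (1.32), Krt86 (1.37) and Krt36 (2.52). These values are a description over libraries that share sham, mice and depth.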

How the data were processed

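Bulk RNA sequencing of skin had been done in 35 libraries. Trim Galore 0.6.7, kallisto 0.46.2 and the mm10 build are named in the submitters' processing notes. The authors deposited estimated counts per gene, not scaled between libraries, of which 29.5% to 32.5% per library were not whole. They were rounded here. No 2 libraries were identical (lowest reduced chi-square 20.0), so each counted as 1 replicate.

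The test throughout was that of edgeR 4.0.16 under R 4.3.3 (filterByExpr, TMM scaling, quasi-likelihood F test, Benjamini-Hochberg adjustment over all genes tested, adjusted p under 0.05), each comparison on its own libraries, after a test on simulated data. Alternatives were DESeq2 1.42.0, other scalings, no filter, one fit of all 35 libraries, a replicate block and leaving out each replicate. SEs of log2 fold changes equal the absolute fold change over the square root of F. Log2 CPM uses a prior count of 2.

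The members and lists were chosen with earlier results of these data known. Named were all members, all other hair keratins and shaft regulators, up to 4 genes of each other list by mean CPM, and the 10 most alike genes. Others are marked. Radiated and control libraries of the same number and week were paired as 1 mouse, from the library names and the 19 mice of the series. Same-numbered deviations over 19813 genes correlated on average at 0.0706, 0.173, 0.0525 and -0.0198 in weeks 1 to 4, against -0.0237, -0.0568, -0.0168 and 0.00738 for other pairs. RefSeq promoter windows (GRCm38.p6) matched 4 of 9 members.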

Additional observations from a re-analysis of the deposited data

Results flagged for a closer look

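In groups of 4 libraries, a single library stood apart from the other 3 in 42 of 72 combinations of a hair shaft keratin and a group (58.3%) by Dixon's criterion at the 95% level. Chance gives about 1 in 20 such combinations, and the members share libraries, so these are not 42 separate events. In 7 of the 42 the other 3 libraries were at 0, where any count stands apart, and 2 of the 42 rest on 3 counts or fewer, so the 58.3% cannot be read against that chance rate. The same 4 libraries gave most of them. Control week 1 replicate 1 was high for 7 members: Krt31 at 65.4 CPM, Krt33a at 83.7, Krt33b at 43.5, Krt34 at 84.1, Krt81 at 222, Krt83 at 187 and Krt86 at 287. Radiated week 3 replicate 4 was high for all 9: Krt31 at 3.82, Krt33a at 2.99, Krt33b at 2.67, Krt34 at 5.02, Krt35 at 6.26, Krt36 at 0.276, Krt81 at 22.1, Krt83 at 11.8 and Krt86 at 24.3. Control week 3 replicate 4 was high for 8: Krt31 at 7.76, Krt33a at 10.8, Krt33b at 6.34, Krt34 at 11.6, Krt35 at 6.73, Krt81 at 32.1, Krt83 at 18.0 and Krt86 at 40.2. Radiated week 4 replicate 3 was high for all 9: Krt31 at 24.8, Krt33a at 29.2, Krt33b at 11.8, Krt34 at 36.3, Krt35 at 22.8, Krt36 at 2.05, Krt81 at 75.4, Krt83 at 64.9 and Krt86 at 113. Control week 2 replicate 1 was high for 4: Krt34 at 1.95, Krt35 at 47.0, Krt81 at 30.3 and Krt86 at 19.7. The rest were high libraries at low levels: radiated week 1 replicate 1 with Krt35 at 2.18 and Krt86 at 0.341, radiated week 2 replicate 2 with Krt33b at 0.0584 and Krt86 at 0.877, and control week 4 replicate 3 with Krt33b at 0.128 CPM.

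The radiated-minus-control difference changed between weeks by the F test of edgeR for 8 members: Krt31 (adjusted p = 0.0266), Krt33a (0.0275), Krt33b (0.0255), Krt34 (0.019), Krt35 (0.0411), Krt81 (0.0261), Krt83 (0.0115) and Krt86 (0.017), where 15.6% of all tested genes were called. With the mouse number as a block Krt31 (0.0592), Krt35 (0.23) and Krt83 (0.0552) lost the call, and without the mice numbered 1 or those numbered 3 no member was called.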

How the results depend on the processing

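Among fold changes under another setting, 859 kept their direction and side of the threshold, 145 lost and 39 gained a call, and 13 changed sign, all in radiated against control skin. In week 2, leaving out 1 library moved Krt35 between -4.38 and 0.12 and Krt36 between -1.18 and 0.45. In week 3 it moved Krt35 between -1.91 and 1.83, Krt83 between -2.65 and 4.17 and Krt86 between -3.80 and 7.07. Krt35 was at 0.25 with total-count scaling. With the replicate block Krt35 was at 0.082, Krt83 at 0.86 and Krt86 at 1.52.

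Counts of called members that moved by over 1.5 times were as follows, and beyond fewer libraries the cause was not tested. Radiated against control skin had 1 without the filter and 1 in one fit of all 35 libraries in week 3 (17.4% and 33.9% of all genes called), and 8 and 7 in week 4 (33% and 35%). DESeq2 called 4 in radiated week 4 and 1 and 3 in control weeks 1 and 3 against sham skin, with 32.7%, 16.6% and 19.9% of all genes. It called 5 for the change of the difference over weeks, and 0 in radiated skin (2 members had an adjusted p) and 2 in control skin over weeks, with 20.4%, 32.5% and 32.1% of all genes. It gave the tested members no adjusted p in radiated against control skin of week 4. No filter gave 1 in control week 1 against sham skin and 7 over weeks in radiated skin, with 4.61% and 14.4% of all genes. With 1 library left out the share of all genes called was as low as 0% in some fits. Leaving out 1 library gave 0 to 1 and 1 to 4 in radiated against control skin of weeks 3 and 4. Against sham skin it gave 0 to 9, 8 to 9, 3 to 9 and 0 to 9 in radiated weeks 1 to 4, and 0 to 4, 0 to 9, 0 to 8 and 0 to 9 in control weeks 1 to 4. It gave 0 to 5 for the difference over weeks, 0 to 4 over weeks in radiated and 0 to 1 in control skin.

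With the replicate block 1 member was called in radiated against control skin of week 4 and 5 in the difference over weeks, and no other count of called members between radiated and control skin changed. Sham skin came from other mice, so its numbers pair no animals. With them as a replicate block 8, 8, 9 and 6 members were called lower in radiated weeks 1 to 4 and 0, 0, 8 and 9 in control weeks 1 to 4, where 0.521%, 1.54%, 7.45%, 6.24%, 0%, 0.0056%, 1.47% and 0.524% of all tested genes were. Depth limits low values: the floor of 3 counts is 0.114 to 0.175 CPM. All 81 levels moved by less than 1 SD when scaled by raw totals. The scaling factors ran only from 0.816 to 1.16 and group SDs were often near or above the means, so this check could hardly fail.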

Other observations

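Genes of other follicle compartments also differed between radiated and control skin. Of 9 bulge genes, 4 were called lower in radiated skin than in control skin in week 3 and 7 in week 4, where 13.6% and 24.2% of all tested genes were, and the block gave 4 and 7 as well. Krt15, a keratin of bulge stem cells and basal epidermis, was at 33.3, 602, 47.1 and 572 CPM in radiated and 2675, 2026, 2083 and 2641 CPM in control skin of week 3. It was at 127, 444, 179 and 20.3 CPM in radiated and 3539, 4592, 4732 and 4397 CPM in control skin of week 4. No radiated value of Krt15 reached a control value in either week, and it fell by 2.89 in week 3 (adjusted p = 0.0336) and by 4.48 in week 4 (SE 0.75, adjusted p = 0.000841). Sox9, a transcription factor of the bulge and outer root sheath, fell by 1.31 (adjusted p = 0.00181) and Cd34, a marker of bulge cells also made by endothelium, by 0.86 (adjusted p = 5.94e-05) in week 4. Of 8 genes of the epidermis between follicles, 5 were called lower and 1, Krt14, higher in the same week 4 comparison (6 in all with the block). The part of the epidermis in the fall of Krt15 was not tested. The radiated week 4 library with the highest hair shaft keratins, replicate 3, had Krt15 at 179 CPM, within the range of its group. Of 10 matrix signal genes, 4 were called lower and 1 higher in week 3, and 6 lower and 2 higher in week 4. Of 6 proliferation genes, 3 were called higher in week 3 and 4 in week 4, and 0 lower. Of all tested genes, 13.6% and 24.2% were called in each direction. With the block 6 and 8 matrix signal genes and 5 and 6 proliferation genes were called, where 21.1% and 42.7% of all genes were.

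Of 9 melanocyte genes tested in week 4, radiated skin had 6 called higher and 1 called lower than control skin, and 5 in all with the block, where 24.2% of all tested genes were called in each direction. Dct, an enzyme of melanin synthesis, rose by 1.19 (SE 0.16, adjusted p = 0.000277) and Kit, a receptor needed by melanoblasts and also made by mast cells, by 1.59 (SE 0.18, adjusted p = 7.53e-05). Mitf, a transcription factor of the lineage, fell by 0.35 (adjusted p = 0.039, and 0.0935 with the block), and Pmel was at 0.69 (adjusted p = 0.18). Of 4 genes of the companion layer and outer root sheath, 3 were called higher in radiated than control skin in week 4, and Krt75, of the companion layer, was at -1.64 (adjusted p = 0.0675, and 0.0108 with the block). Krt16, a keratin of that layer and of injured epidermis, rose by 7.86 (adjusted p = 1.4e-06) and Krt6a, its partner, by 4.69 (adjusted p = 2.2e-07).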
